A study of Homo sapiens with 12 samples.

Results

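The genes described here are 10 of the 60715 genes in the deposited expression table: CIITA, the peptide-presenting chains HLA-DRA, HLA-DRB1, HLA-DRB5, HLA-DPA1, HLA-DPB1 and HLA-DQB1, the peptide exchange chains HLA-DMA and HLA-DMB, and CD74, the invariant chain. They were taken by gene name, and the set was chosen by levels and detachment differences already seen in these libraries, so both are given here as a description, with no test of their own. RNA was sequenced from 4 lung adenocarcinoma lines, HCC4006, NCI-H2228, LC-2/ad and NCI-H2009, in 3 states, with 1 library per line and state. In the detached states, trypsinised cells had been kept on ultra-low attachment plates for 1 day or 7 days. The control was the same line in attached culture, with no time on its label, and each attached library served as the control at both times. All groups were grown in RPMI-1640 with fetal bovine serum and antibiotics. Effects of lost attachment, trypsin, replating and time in culture cannot be told apart in this design, and no line had a replicate within a state.

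MHC class II molecules are cell-surface pairs of an alpha and a beta chain that show peptides from the endosomes and lysosomes to CD4+ T cells. CD74 binds new pairs in the endoplasmic reticulum, blocks their peptide groove and guides them to the endosomes, where proteases trim it to a fragment that HLA-DM then removes in exchange for other peptides. Their transcription depends on CIITA, a coactivator that does not bind DNA itself but joins RFX, CREB and NF-Y on the X and Y boxes of the promoters. These genes are best known from antigen-presenting leukocytes, and alveolar type 2 cells of the lung also make them.

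The X and Y boxes are the sequence that ties the class II genes together, so the stretches of their promoters that held a match are printed here. RefSeq promoters in GRCh38.p14, each of 250 bases before and 50 after a transcript start, were at hand for 8 of the 10 genes, all but HLA-DRA and CIITA. An X box core written ACNGATGA and a Y box core written CTGATTGG, or its 5 letters ATTGG alone, were searched on both strands. The ATTGG letters lie within CTGATTGG, and these spellings were chosen, among several tried, after the promoters had been seen. Each sequence runs 5′ to 3′ on the strand of its gene with 10 bases around the matches (and a longer stretch before the match in HLA-DPB1), and capitals mark the matched letters. ATTGG reads as CCAAT, and the X box core of CD74 in reverse complement, where the match was on the opposite strand.
HLA-DRB1: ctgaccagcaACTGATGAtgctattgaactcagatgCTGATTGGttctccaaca
HLA-DRB5: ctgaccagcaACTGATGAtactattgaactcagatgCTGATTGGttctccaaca
HLA-DQB1: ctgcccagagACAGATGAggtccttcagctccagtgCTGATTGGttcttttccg
HLA-DMA: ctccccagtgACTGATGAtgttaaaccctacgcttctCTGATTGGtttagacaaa
HLA-DMB: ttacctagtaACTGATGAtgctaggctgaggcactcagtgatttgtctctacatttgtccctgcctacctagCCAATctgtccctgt
HLA-DPB1: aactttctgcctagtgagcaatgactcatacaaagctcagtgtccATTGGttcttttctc
CD74: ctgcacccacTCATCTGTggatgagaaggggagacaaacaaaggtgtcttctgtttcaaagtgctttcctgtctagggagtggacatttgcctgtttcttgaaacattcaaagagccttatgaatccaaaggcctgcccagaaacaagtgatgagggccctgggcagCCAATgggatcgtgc

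The printed stretches lie at chr6:32589880-32589933 (HLA-DRB1), chr6:32530363-32530416 (HLA-DRB5), chr6:32666731-32666784 (HLA-DQB1), chr6:32953162-32953216 (HLA-DMA) and chr6:32941036-32941122 (HLA-DMB), all on the minus strand. Those of HLA-DPB1 and CD74 lie at chr6:33075846-33075905 on the plus strand and at chr5:150412949-150413130 on the minus strand. The X box core was in 6 of the 8 genes with a promoter here and in 795 (2.26%) of all 35116 promoters searched. CTGATTGG was in 4 of the 8 genes and in 3.97% of all promoters, and ATTGG was in 7 of the 8 and in 34.6% of all. An X box core followed by CTGATTGG, with starts 24 to 36 bases apart, was found in 6 promoters (0.0171%), those of HLA-DRB1, HLA-DRB5, HLA-DQB1, HLA-DMA, PEX10 and SPDYE4. The starts were 26 bases apart in HLA-DRB1, HLA-DRB5 and HLA-DQB1 and 27 in HLA-DMA. In HLA-DMB the nearest match to the short Y box core began 62 bases after the X box match, and in CD74 157 bases after it. The X box match of CD74 is on the opposite strand. Near matches to these spellings are not marked in any of the stretches. Whether the marked letters are the boxes that work in these promoters was not tested, so their positions and spacings are those of the spelling only. The 2 promoters listed for HLA-DPA1 held none of these letters, which says only that this spelling is not in those windows.

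**Figure D1:**
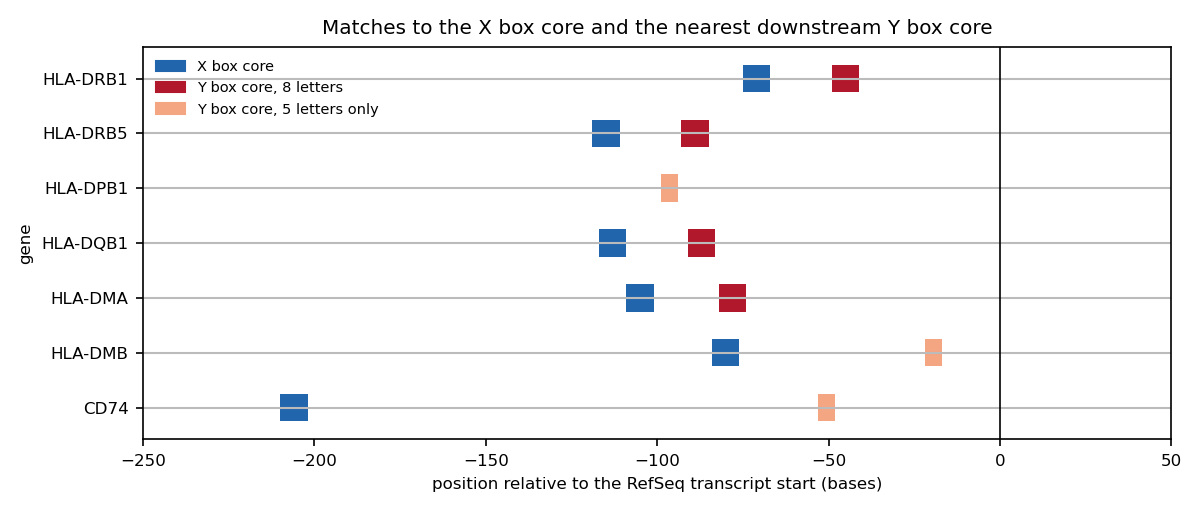
Position of the matches in the RefSeq promoters of 7 class II genes, in bases relative to the transcript start, with the X box core as a blue block, CTGATTGG as a dark red block and ATTGG alone as a light block. The match to the X box core begins at -75 in HLA-DRB1, -84 in HLA-DMB, -109 in HLA-DMA, -117 in HLA-DQB1, -119 in HLA-DRB5 and -210 in CD74. Near matches to the spellings are not shown.

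The libraries held between 31134420 and 41882024 estimated counts. The NCI-H2009 day 1 library stood apart: 17.4% of the 17395 genes tested were lower by at least 1 on the log2(TPM + 1) scale against its attached library (TPM is a length-scaled share of a library's transcripts). In the other lines 2.25% to 6.63% were. Among genes of 10000 bases or more, the median difference in that library was -0.45, against -0.17 over all genes tested, and it lay within 0.09 of 0 in the other lines at day 1. CIITA is the longest of the 10 genes. As for cell identity, 7 of 13 leukocyte markers stayed under 1 TPM in each of the 12 libraries. The defining markers PTPRC (no more than 0.834 TPM), SPI1 (no more than 0.040 TPM) and CD3E (no more than 0.140 TPM) were among them, and MS4A1 and CD1C were listed at 0 throughout. The summed level of the 13 markers was 17.5 to 40.6 TPM in attached libraries, 34.6 to 171 TPM at day 1 and 21.5 to 121 TPM at day 7. CD14, CD68 and, in NCI-H2009, CD79A made up most of these sums. The 8 epithelial markers summed to 5289 to 17024 TPM attached, 4042 to 13133 TPM at day 1 and 3701 to 19813 TPM at day 7. In bulk RNA, fewer cells that express a gene and less RNA of it per cell cannot be told apart.

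CIITA lies at chromosome 16, 10866222 to 10943021, on the plus strand of GRCh38. It had the lowest level of the 10 genes in NCI-H2228, at 4.37 TPM attached, 9.42 TPM at day 1 and 5.48 TPM at day 7. In HCC4006 it had 5.51 TPM attached, 7.04 TPM at day 1 and 9.80 TPM at day 7. These lines lay above the others in every state. LC-2/ad had 1.17 TPM attached, 1.22 TPM at day 1 and 2.16 TPM at day 7. NCI-H2009 had 0.743 TPM attached, 0.580 TPM at day 1 and 2.52 TPM at day 7. The level after 7 days was above the attached one in each of the 4 lines, by 0.27 in NCI-H2228 to 1.01 in NCI-H2009 on the log2(TPM + 1) scale. The fitted log2 fold change over the 4 lines was 0.44 ± 0.34 at day 1 and 0.92 ± 0.34 at day 7 (SE, n = 4 lines), each against attached. CIITA overlaps DEXI on the opposite strand over 13578 bases, and DEXI reached 35.5 TPM. Whether reads of DEXI were counted to CIITA was not tested. It also shares 11.5% of its 50-base words in GENCODE 29 transcripts with other genes, mainly AC133065.3, which stayed at or under 0.233 TPM.

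HLA-DRA codes for the alpha chain of HLA-DR and lies at chromosome 6, 32439878 to 32445046, on the plus strand. NCI-H2228 had 511 TPM attached, 1163 TPM at day 1 and 448 TPM at day 7. HCC4006 had 39.3 TPM attached, 124 TPM at day 1 and 436 TPM at day 7. At day 7 these lines were close to each other, while attached NCI-H2228 stood far above HCC4006. LC-2/ad had 17.2 TPM attached, 44.6 TPM at day 1 and 52.1 TPM at day 7. In NCI-H2009 the gene had 0.072 TPM attached, 0.430 TPM at day 1 and 2.97 TPM at day 7, from 2, 16 and 75 estimated counts. At day 7 against attached, the level was 11.1 times as high in HCC4006 and 3.03 times as high in LC-2/ad, but 0.878 times the attached level in NCI-H2228. No 50-base word of its transcripts occurred in another gene, and its estimated counts were whole numbers in each of the 12 libraries, which held for none of the other 9 genes. Over the 4 lines its fitted log2 fold change was 1.47 ± 0.59 at day 1 and 2.32 ± 0.64 at day 7 (SE, n = 4 lines), each against attached.

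HLA-DRB1, the main beta chain of HLA-DR, lies at chromosome 6, 32578769 to 32589848, on the minus strand. It had 836 TPM attached, 1669 TPM at day 1 and 916 TPM at day 7 in NCI-H2228. In HCC4006 it had 17.0 TPM attached, 49.7 TPM at day 1 and 361 TPM at day 7. The day 7 level in HCC4006 was 21.2 times the attached one, where that of HLA-DRA was 11.1 times the attached one. LC-2/ad had 23.9 TPM attached, 57.4 TPM at day 1 and 76.8 TPM at day 7. NCI-H2009 stayed lowest, with 0.284 TPM attached, 0.475 TPM at day 1 and 1.75 TPM at day 7. HLA-DRB1 stood above HLA-DRA in LC-2/ad, at 1.29 to 1.47 TPM per TPM of HLA-DRA, and in NCI-H2228, at 1.44 to 2.04. In HCC4006 it stood below, at 0.433 attached, 0.399 at day 1 and 0.827 at day 7.

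HLA-DRB5 codes for another DR beta chain, which only some haplotypes carry. It lies at chromosome 6, 32517353 to 32530287, on the minus strand. It had 229 TPM attached, 448 TPM at day 1 and 294 TPM at day 7 in NCI-H2228. In HCC4006 it had 5.30 TPM attached, 15.3 TPM at day 1 and 117 TPM at day 7. It followed HLA-DRB1 closely in these lines, at 0.268 to 0.321 TPM per TPM of HLA-DRB1 in NCI-H2228 and 0.309 to 0.324 in HCC4006. LC-2/ad had 2.99 TPM attached, 10.3 TPM at day 1 and 10.2 TPM at day 7, or 0.125 to 0.179 per TPM of HLA-DRB1. In NCI-H2009 the gene was listed at 0 attached and reached 0.267 TPM at day 7. Both DR beta genes had estimated counts that were not whole in 9 of 12 libraries, and 8.64% of the 50-base words of HLA-DRB1 occur in HLA-DRB5. No 100-base word was shared. How far reads of one DR beta gene were credited to the other was not tested, and alleles that differ from the genome sequence may add to this.

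HLA-DPA1 and HLA-DPB1 code for the alpha and beta chains of HLA-DP. They lie on opposite strands of chromosome 6, at 33064569 to 33080775 (minus) and 33075990 to 33089696 (plus), and overlap over 4786 bases. Whether counting used the strand is not known here, and their reads may have been mixed. HLA-DPA1 had 224 TPM attached, 394 TPM at day 1 and 203 TPM at day 7 in NCI-H2228. In HCC4006 it had 27.2 TPM attached, 77.4 TPM at day 1 and 288 TPM at day 7, so at day 7 HCC4006 was the higher of these lines. LC-2/ad had 4.38 TPM attached, 11.6 TPM at day 1 and 10.3 TPM at day 7. NCI-H2009 had 0.048 TPM attached, 0.179 TPM at day 1 and 1.78 TPM at day 7. HLA-DPB1 moved with it in HCC4006, with 20.8 TPM attached, 68.8 TPM at day 1 and 274 TPM at day 7. NCI-H2228 had 97.4 TPM of HLA-DPB1 attached, 227 TPM at day 1 and 117 TPM at day 7. LC-2/ad had 3.50 TPM attached, 6.49 TPM at day 1 and 4.05 TPM at day 7. The HLA-DPB1 level per TPM of HLA-DPA1 in LC-2/ad was 0.800 attached, 0.561 at day 1 and 0.392 at day 7, an order opposite to that in HCC4006, where it was 0.762, 0.889 and 0.951. In NCI-H2009 HLA-DPB1 was listed at 0 attached and at day 1 and had 0.303 TPM, from 10 estimated counts, at day 7.

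HLA-DQB1, the beta chain of HLA-DQ, lies at chromosome 6, 32659467 to 32668383, on the minus strand. HCC4006 had hardly any of it and stood below LC-2/ad in all 3 states. Among the DR and DP genes, HCC4006 stood below LC-2/ad for HLA-DRB1 alone, and there only attached and at day 1. HCC4006 had 0.046 TPM attached, from 2 estimated counts, 0.580 TPM at day 1 and 5.49 TPM at day 7. LC-2/ad had 48.5 TPM attached, 63.6 TPM at day 1 and 43.9 TPM at day 7, so in attached LC-2/ad it stood above HLA-DRB1, at 2.03 TPM per TPM of HLA-DRB1, and at day 7 below it, at 0.572. NCI-H2228 had 123 TPM attached, 228 TPM at day 1 and 105 TPM at day 7. NCI-H2009 had 0.173 TPM attached, 0.561 TPM at day 1 and 1.65 TPM at day 7. Detached day 7 levels were below the attached ones in LC-2/ad and NCI-H2228 and above them in the other lines. The antisense transcript HLA-DQB1-AS1 overlaps it over 850 bases and reached 2.62 TPM. Whether the HLA-DQB1 allele of HCC4006 is well counted against the reference sequence was not tested.

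**Figure D2:**
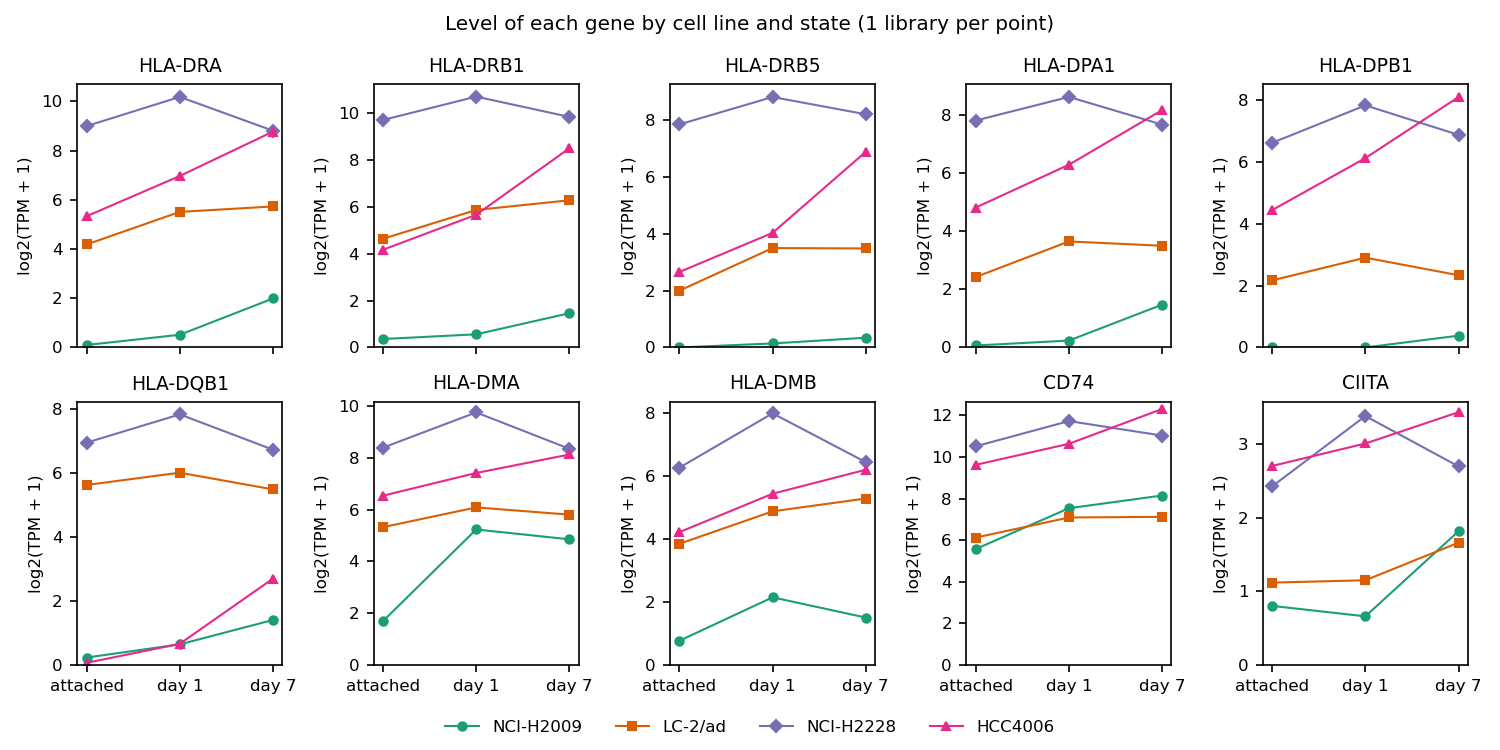
Level of each of the 10 genes on the log2(TPM + 1) scale (vertical axes, which differ between panels) in attached culture, after 1 day and after 7 days detached (horizontal axes). Each point is 1 library, and lines join the libraries of 1 cell line. In each panel NCI-H2228 has its own highest point at day 1 and HCC4006 its own at day 7. For CD74 the HCC4006 day 7 library reaches 5089 TPM, above the 3398 TPM of NCI-H2228 at day 1.

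The 6 peptide-presenting chains were summed to compare the lines. NCI-H2228 had 2020.1 TPM attached, 4129 TPM at day 1 and 2083 TPM at day 7. HCC4006 had 109.7 TPM attached, 336 TPM at day 1 and 1481 TPM at day 7. LC-2/ad had 100.5 TPM attached, 194 TPM at day 1 and 197 TPM at day 7. NCI-H2009 had 0.577 TPM attached, 1.75 TPM at day 1 and 8.72 TPM at day 7. The order of the lines was the same in the 3 states, with NCI-H2228 first, then HCC4006, LC-2/ad and NCI-H2009. Over the states, the ranges of HCC4006 and LC-2/ad overlapped, and those of the other neighbours in that order did not. The 10 genes together held 0.0051% of all TPM in attached NCI-H2009 at the low end and 0.865% in NCI-H2228 at day 1 at the high end. Of the variance of log2(TPM + 1) over the 12 libraries, cell line took between 79.4% for HLA-DMA and 94.6% for HLA-DQB1, and state between 1.55% for HLA-DQB1 and 11.8% for HLA-DMA.

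HLA-DMA and HLA-DMB code for the chains of HLA-DM, which catalyses peptide exchange on the presenting molecules. HLA-DMA, at chromosome 6, 32948613 to 32969094 on the minus strand, had 2.23 TPM attached, 36.6 TPM at day 1 and 27.9 TPM at day 7 in NCI-H2009. Detached NCI-H2009 thus held 16.4 times the attached level at day 1 and 12.5 times at day 7, while its DR and DP chains stayed under 3 TPM. NCI-H2228 had 335 TPM attached, 863 TPM at day 1 and 325 TPM at day 7. HCC4006 had 91.9 TPM attached, 169.6 TPM at day 1 and 279 TPM at day 7. LC-2/ad varied least, with 39.0 TPM attached, 66.9 TPM at day 1 and 54.9 TPM at day 7. HLA-DMB, at 32934629 to 32941028 on the same strand, had 76.2 TPM attached, 255 TPM at day 1 and 86.2 TPM at day 7 in NCI-H2228. In LC-2/ad it had 13.4 TPM attached, 28.5 TPM at day 1 and 38.1 TPM at day 7, so that it stood higher relative to HLA-DMA at each later state, at 0.344 TPM per TPM of HLA-DMA attached, 0.426 at day 1 and 0.694 at day 7. HCC4006 had 17.7 TPM of HLA-DMB attached, 42.5 TPM at day 1 and 72.7 TPM at day 7, and NCI-H2009 had 0.703 TPM attached, 3.43 TPM at day 1 and 1.84 TPM at day 7. The predicted gene AL645941.2 overlaps both on the same strand but stayed at or under 0.584 TPM. BRD2 overlaps HLA-DMA over 501 bases on the opposite strand and reached 115 TPM.

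CD74 lies at chromosome 5, 150400041 to 150412929, on the minus strand, outside the MHC. Besides its role as invariant chain it is a surface receptor for the cytokine MIF. HCC4006 had 789 TPM attached, 1593 TPM at day 1 and 5089 TPM at day 7. NCI-H2228 had 1466 TPM attached, 3398 TPM at day 1 and 2093 TPM at day 7. These lines exchanged places between the detached states. LC-2/ad had 68.9 TPM attached, 135 TPM at day 1 and 138 TPM at day 7. NCI-H2009, which had almost none of the presenting chains, had 46.7 TPM of CD74 attached, 185 TPM at day 1 and 283 TPM at day 7. CD74 was higher in each line in both detached states than attached, and at day 7 it stood at 6.45 times the attached level in HCC4006, 6.06 times in NCI-H2009, 2.01 times in LC-2/ad and 1.43 times in NCI-H2228. Its estimated counts were not whole in any library, it overlaps TCOF1 on the opposite strand over 268 bases, and no 50-base word of it occurred in another gene.

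The balance of CD74 to the presenting chains set NCI-H2009 and HCC4006 apart from each other and from the other lines in every state. LC-2/ad and NCI-H2228 were close when attached, and NCI-H2228 varied more over its states than it differed there from LC-2/ad. For HLA-DM the lines stood apart chiefly through NCI-H2009. Per TPM of the 6 presenting chains summed, CD74 stood at 81.0 attached, 106 at day 1 and 32.4 at day 7 in NCI-H2009. It stood at 7.20 attached, 4.74 at day 1 and 3.43 at day 7 in HCC4006. LC-2/ad kept 0.685 to 0.701 in all 3 states, and NCI-H2228 had 0.726 attached, 0.823 at day 1 and 1.00 at day 7. In LC-2/ad, then, CD74 and the sum of the presenting chains differed between states in proportion, but the single chains did not. At day 7 in that line, CD74 was 2.01 times its attached level, HLA-DRA 3.03 times and HLA-DRB1 3.21 times. HLA-DRB5 and HLA-DPA1 were also higher by more than CD74, while HLA-DPB1 was 1.16 times and HLA-DQB1 0.906 times its attached level. In HCC4006 the presenting chains were higher by more than CD74. HLA-DM per TPM of the presenting chains was 0.999 attached, 0.631 at day 1 and 0.237 at day 7 in HCC4006. It was 5.09 attached, 22.9 at day 1 and 3.41 at day 7 in NCI-H2009. In LC-2/ad it lay between 0.471 and 0.522 and in NCI-H2228 between 0.198 and 0.271. The NCI-H2009 ratios divide by sums of 0.577 to 8.72 TPM and are imprecise.

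**Figure D3:**
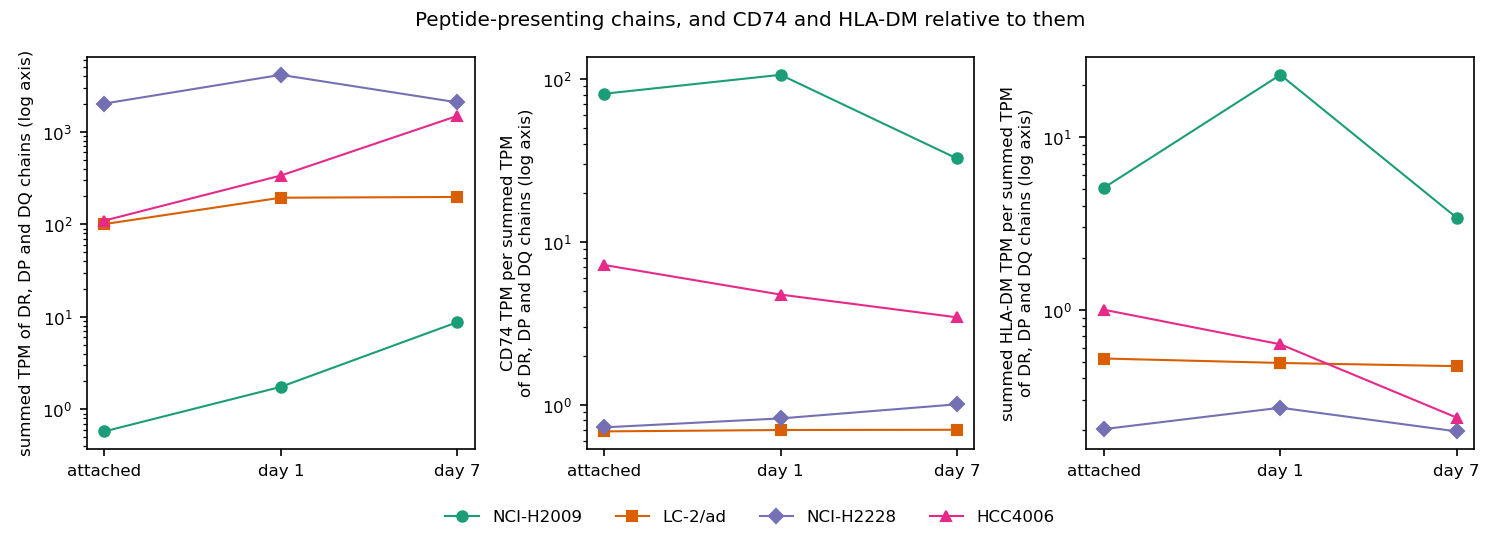
Summed TPM of the 6 presenting chains (left), CD74 TPM per TPM of that sum (middle) and HLA-DM TPM per TPM of that sum (right), on log axes, in attached culture and after 1 and 7 days detached, with 1 point per library and 1 line per cell line. HCC4006 shows the sum higher at each later state, up to 1481 TPM, with both ratios lower, down to 3.43 for CD74 and 0.237 for HLA-DM.

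After 1 day without attachment the class II genes were higher in nearly every line. Relative to attached, 8 of the 10 were higher in all 4 lines, where 11.9% of all genes tested were. The exceptions were CIITA, which was lower by 0.14 on the log2(TPM + 1) scale in NCI-H2009 (but higher by 0.41 there, and lower by 0.28 in LC-2/ad, on log2 CPM with a prior count of 2), and HLA-DPB1, listed at 0 in both libraries of that line. The median difference on that scale was 1.30 in HCC4006, 1.09 in NCI-H2228, 1.00 in LC-2/ad and 0.31 in NCI-H2009. On log2 CPM it was 1.61 in HCC4006, 1.25 in NCI-H2228, 1.01 in LC-2/ad and 1.69 in NCI-H2009, so the place of NCI-H2009, whose presenting chains stayed under 3 TPM, depends on the scale. Higher by at least 1 were 7 of the 10 in HCC4006, 5 in NCI-H2228, 5 in LC-2/ad and 3 in NCI-H2009, where 1.71%, 5.81%, 2.59% and 7.31% of all genes tested were. The 3 in NCI-H2009 were HLA-DMA, HLA-DMB and CD74. The fitted log2 fold changes ran from 0.44 for CIITA to 1.77 ± 0.41 (SE, n = 4 lines) for HLA-DMB, with a median of 1.34, or 1.33 without the NCI-H2009 day 1 library. The median over all genes tested was 0.01.

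At day 7 against attached the lines differed more from each other. All 10 genes were higher in HCC4006 and in NCI-H2009, 9 in LC-2/ad and 6 in NCI-H2228. Higher in all 4 lines were 6, namely HLA-DRB1, HLA-DRB5, HLA-DPB1, HLA-DMB, CD74 and CIITA, where 12.9% of all genes tested were, and on log2 CPM there were 7. The median difference was 3.02 in HCC4006, 1.14 in NCI-H2009, 1.04 in LC-2/ad and 0.15 in NCI-H2228, and on log2 CPM that of NCI-H2009 was 2.37. Higher by at least 1 were 9 of the 10 in HCC4006, 7 in NCI-H2009, 5 in LC-2/ad and 0 in NCI-H2228, where 3.25%, 15.7%, 4.08% and 2.59% of all genes tested were. In HCC4006 the greatest difference was 4.33, for HLA-DRB1, and the smallest 0.73, for CIITA. The fitted log2 fold changes ran from 0.92 for CIITA to 2.48 ± 0.72 (SE, n = 4 lines) for HLA-DRB5, with a median of 1.81, or 1.74 without the NCI-H2009 day 1 library. The median over all genes tested was 0.03. Without HCC4006 the median of the 10 was 1.11, and with the cell line left out of the fit it was 0.82.

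Between day 7 and day 1, HCC4006 and NCI-H2228 differed in opposite directions for each of the 10 genes. All were higher at day 7 in HCC4006, with a median difference of 1.84 on the log2(TPM + 1) scale, and all were lower in NCI-H2228, with a median of -0.95. In HCC4006 7 were higher by at least 1, where 2.08% of all genes tested were, and in NCI-H2228 4 were lower by at least 1 (HLA-DRA, HLA-DQB1, HLA-DMA and HLA-DMB), where 5.19% were. NCI-H2009 had 8 higher and 2 lower, with a median of 0.69, or 7 higher and 3 lower with a median of 1.00 on log2 CPM. Of those 8, 3 were higher by at least 1, where 25.0% of all genes tested were, and the NCI-H2009 day 1 library that stood apart is the denominator. LC-2/ad had 5 higher and 5 lower, with a median of 0.01. No gene of the 10 was higher by at least 1 in LC-2/ad or NCI-H2228, where 3.26% and 3.47% of all genes tested were. None of the 10 was higher in all 4 lines, where 13.2% of all genes tested were. The median fitted log2 fold change of the 10 was 0.70, or 0.56 without the NCI-H2009 day 1 library, beside 0.02 over all genes tested. It was -0.22 without HCC4006, 0.40 without NCI-H2009, 1.17 without LC-2/ad and 1.35 without NCI-H2228, and -0.37 with the cell line left out of the fit, so its sign rests on HCC4006 and on pairing by line. HLA-DMA had a fitted value of -0.55, and of 0.02 without the NCI-H2009 day 1 library.

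**Figure D4:**
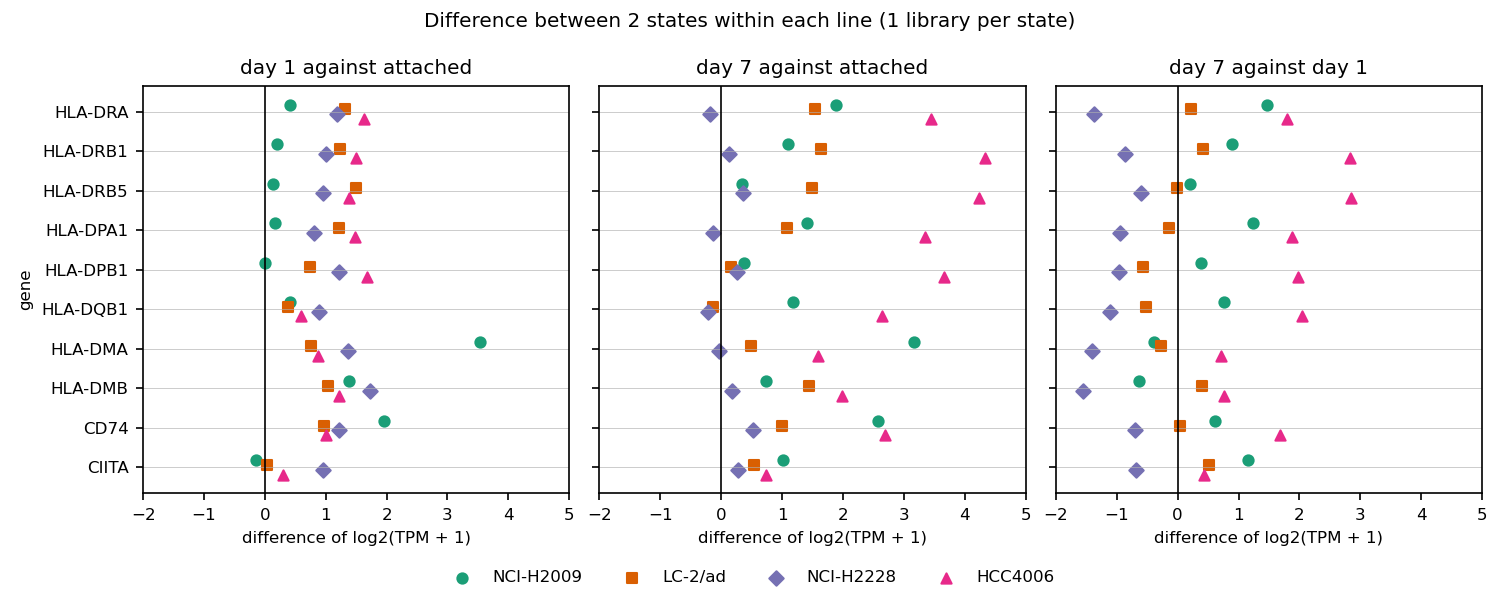
Difference of log2(TPM + 1) between 2 states within each line for the 10 genes, for day 1 against attached (left), day 7 against attached (middle) and day 7 against day 1 (right). Each point compares 1 library with 1 other, and values above 0 are higher in the state named first. In the right panel the HCC4006 points lie above 0 and the NCI-H2228 points below 0 for each gene, with medians of 1.84 and -0.95.

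The spread between lines within a state was as large as the mean of most genes. CD74 averaged 593 ± 677 TPM attached, 1328 ± 1537 TPM at day 1 and 1901 ± 2304 TPM at day 7 (SD, n = 4 lines), and CIITA averaged 2.95 ± 2.35, 4.56 ± 4.35 and 4.99 ± 3.53 TPM in these states. The test across all genes asked for differences shared by the 4 lines, with the cell line as a block. With edgeR's quasi-likelihood test and Benjamini-Hochberg adjustment over 17395 genes, none of the 10 class II genes passed 0.05 in any comparison. Over all genes tested, 0.489% passed at day 1 against attached, 0.103% at day 7 against attached and 0% at day 7 against day 1. At an unadjusted p under 0.05 there were 5 of the 10 at day 1, 8 at day 7 and 0 between the detached states, where 19.6%, 15.7% and 9.78% of all genes tested were. DESeq2 called 3 of the 10 at day 1 (CD74, HLA-DMA and HLA-DMB) and 6 at day 7 (CD74, HLA-DMB, HLA-DPA1, HLA-DRA, HLA-DRB1 and HLA-DRB5), each higher in detached cells, where 5.46% and 3.45% of all genes tested were called higher. It called none between day 7 and day 1, where 1.11% of all genes were called in either direction. Limma on log2(TPM + 1) called 0 of the 10 in each comparison, where 1.29%, 0.0747% and 0% of all genes tested were called. The tools thus disagreed on whether single class II genes passed, and the p-values speak of the spread among 4 lines only.

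The levels of most of the 10 genes ran in parallel over the libraries, and HLA-DQB1 departed most. Pearson's r between pairs of them on log2(TPM + 1) over the 12 libraries had a median of 0.90 in 45 pairs, from 0.20 for CIITA with HLA-DQB1 to 0.99 for HLA-DPA1 with HLA-DPB1. After the mean of each line was taken off, the median was 0.81 and the range 0.48 to 0.99. The 12 points come from 4 lines and share libraries, and HLA-DPA1 with HLA-DPB1 and HLA-DRB1 with HLA-DRB5 may share reads, so these values are a description. Pairs with CIITA had a median of 0.82 over the 12 libraries and 0.68 with line means removed. Over the 12 libraries, HLA-DQB1 had 0.22 with CD74, 0.46 with HLA-DPB1 and 0.53 with HLA-DPA1, and at most 0.78, with HLA-DRB1. With line means removed, its pairs ran from 0.63 with HLA-DMA to 0.92 with HLA-DPA1. HLA-DMA with HLA-DRB5 was lowest with line means removed, at 0.48.

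Among 11804 protein-coding genes outside the set, the 8 most like the mean scaled level of the set over the 12 libraries were ACOT1, AGT, TXNDC15, CLU, MUC1, CSF2RA, PLXND1 and ALDH3A1, with Pearson's r between 0.97 and 0.94. ACOT1, an acyl-CoA thioesterase, had 0.85 to 2.26 TPM in NCI-H2009 and 14.4 to 32.2 TPM in NCI-H2228. CLU, the secreted chaperone clusterin, had 0.40 to 1.10 TPM in NCI-H2009 and 786 to 1528 TPM in NCI-H2228. With line means removed, the 8 nearest were SCG5, ACSS2, HHIPL2, KRTCAP3, CADPS2, FCGR2A, SULT1A2 and GLUL, with r between 0.95 and 0.92. GLUL, glutamine synthetase, had 438 TPM attached, 650 TPM at day 1 and 1556 TPM at day 7 in HCC4006. In NCI-H2228 it had 237 TPM attached, 1058 TPM at day 1 and 430 TPM at day 7. Like the class II genes, GLUL was highest at day 7 in HCC4006 and at day 1 in NCI-H2228. Ranked by Spearman's rho, 5 of the first 8 and 4 of the second 8 were again among the top.

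The other genes of the pathway comprised 78 genes in 6 lists, of which 64 were tested. With edgeR, 0 of the 64 passed in either direction in any comparison, where 0.489%, 0.103% and 0% of all genes tested passed. The smallest adjusted p was 0.0767 at day 1, 0.116 at day 7 (each against attached) and 0.432 at day 7 against day 1. At an unadjusted p under 0.05, 23 were higher and 2 lower at day 1, 19 higher and 3 lower at day 7, and 2 higher and 10 lower at day 7 against day 1, where 19.6%, 15.7% and 9.78% of all genes tested were in either direction. DESeq2 called 14 higher and 1 lower at day 1, 11 higher and 3 lower at day 7, and 0 higher and 1 lower between the detached states, where 5.46% and 3.45% of all genes tested were called higher in the first 2 and 1.11% in either direction in the last. Limma on log2(TPM + 1) called 0 in each, where 1.29%, 0.0747% and 0% of all genes tested were called. The median log2 fold change of the 64 genes was 0.51 at day 1 and 0.30 at day 7.

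Of the other class II genes, 11 were in the table and 5 were tested, with medians of 1.07 at day 1 and 1.41 at day 7 on the log2 fold change scale. HLA-DQA1, the partner chain of HLA-DQB1, had 42.8 TPM attached, 161 TPM at day 1 and 72.7 TPM at day 7 in NCI-H2228. It stayed at or under 0.105 TPM in LC-2/ad, where HLA-DQB1 had 43.9 to 63.6 TPM, and at or under 2.17 TPM in HCC4006. LC-2/ad was the line with HLA-DQB2, at 7.62 TPM attached, 8.42 TPM at day 1 and 7.46 TPM at day 7, beside no more than 0.920 TPM elsewhere. HLA-DQB1 shares 1.51% of its 50-base words with HLA-DQB2. The DR pseudogene HLA-DRB6 had 2.73 TPM attached, 7.52 TPM at day 1 and 30.9 TPM at day 7 in HCC4006, and no more than 1.01 TPM elsewhere. HLA-DOA and HLA-DOB, the chains of HLA-DO, which restrains HLA-DM, reached 6.40 TPM in NCI-H2228 and 1.63 TPM in the same line. Other DR beta genes carried by some haplotypes, HLA-DRB3 and HLA-DRB4, are not analysed here.

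Factors that bind or modify class II promoters had fitted changes below 0 in 12 of 13 at day 1, with RFXANK alone above. Most of these 12 values were smaller than their SE, such as -0.02 ± 0.16 for EP300 and -0.05 ± 0.15 for NFYC (SE, n = 4 lines). Only 3 of the 13 were lower in all 4 lines. The share of all genes tested below 0 is not given here, and their median was 0.01, so no shared fall is read from the count. At day 7, 8 lay above 0 and 5 below. All 13 were tested, with a median log2 fold change of -0.09 at day 1 and 0.06 at day 7. RFX5, the DNA-binding subunit of RFX, had log2 fold changes of -0.06 ± 0.27 at day 1 and 0.13 ± 0.27 at day 7 (SE, n = 4 lines). At day 1, CREB1, a subunit of CREB, had -0.82 ± 0.29 (edgeR adjusted p = 0.169), and RFXANK, a subunit of RFX, had 0.63 ± 0.23 (edgeR adjusted p = 0.177). CREB1 had 8.69 TPM in the NCI-H2009 day 1 library that stood apart, against 45.8 TPM attached. By the smallest p at day 7, ZXDC, a zinc finger protein that binds CIITA, had 0.55 ± 0.18 (edgeR adjusted p = 0.198), and CARM1, an arginine methyltransferase, had -0.48 ± 0.27 (edgeR adjusted p = 0.416). RFX5 in NCI-H2009 was 39.5 TPM attached, 45.5 TPM at day 1 and 97.4 TPM at day 7, and the last value was the highest of the 12 libraries.

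Interferon-gamma is the best known inducer of CIITA. Its own gene IFNG and its target CXCL9 were listed at 0 in all 12 libraries, and CXCL10 reached no more than 0.316 TPM. Of 16 genes in the interferon-gamma list 13 were tested, with medians of 0.53 at day 1 and 0.43 at day 7. By the smallest p at day 7, the transcription factor IRF1 had a log2 fold change of 0.74 ± 0.22 (edgeR adjusted p = 0.168) at day 7, the GTPase GBP2 had 1.21 ± 0.44 (edgeR adjusted p = 0.238) and the tryptophan-degrading enzyme IDO1 had 1.92 ± 0.89 (edgeR adjusted p = 0.336). IDO1 had 4.20 TPM attached, 9.77 TPM at day 1 and 29.3 TPM at day 7 in HCC4006, and 203 TPM attached, 344 TPM at day 1 and 98.8 TPM at day 7 in NCI-H2228. GBP1, another interferon-gamma target, was lower at day 1 than attached in each line, for example with 5.76 TPM at day 1, against 10.1 TPM attached, in NCI-H2228. Its log2 fold change at day 1 was -0.56 ± 0.41 (edgeR adjusted p = 0.472), and that of GBP2 was 1.72 ± 0.44 (edgeR adjusted p = 0.0910). Of the 13, 7 were higher and 2 lower in all 4 lines at day 1, where 11.9% of all genes tested were higher.

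The next list holds proteases of CD74 and antigens, IFI30 (GILT), and the ligases MARCHF1 and MARCHF8. Of its genes, 11 of 12 were tested, with medians of 1.01 at day 1 and 0.79 at day 7. At day 1, 7 of the 11 had an unadjusted p under 0.05, all higher, beside 19.6% of all genes tested in either direction. CTSS, cathepsin S, which cuts the invariant chain in antigen-presenting cells, had 3.12 TPM attached, 37.7 TPM at day 1 and 289 TPM at day 7 in NCI-H2009, and a log2 fold change over the lines of 2.17 ± 0.91 at day 7 (edgeR adjusted p = 0.291). CTSF, cathepsin F, had 1.83 ± 0.53 at day 7 (edgeR adjusted p = 0.163). CTSB, cathepsin B, had 1.05 ± 0.26 (edgeR adjusted p = 0.134) and CTSD, cathepsin D, 0.80 ± 0.28 (edgeR adjusted p = 0.223). In NCI-H2228 CTSS had 77.7 TPM attached, 192 TPM at day 1 and 48.5 TPM at day 7. In HCC4006 it had 19.0 TPM attached, 49.7 TPM at day 1 and 67.9 TPM at day 7. Its highest state in each of these lines was thus that of the class II genes. LGMN, asparagine endopeptidase, had 228 TPM attached, 419 TPM at day 1 and 787 TPM at day 7 in HCC4006 and 202 TPM attached, 780.1 TPM at day 1 and 299.8 TPM at day 7 in NCI-H2228.

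Receptor partners of CD74 and T cell costimulators were mixed, with 9 of 13 tested and medians of 0.24 at day 1 and -0.19 at day 7. MIF, the ligand of CD74, stood between 2039 and 9606 TPM in the 12 libraries, and CD44, its signalling partner, between 87.9 and 5698 TPM. The costimulators CD80 and CD86 stayed at or under 0.029 TPM and 0.916 TPM. By the smallest p at day 7, PDCD1LG2 (PD-L2) had a log2 fold change of -1.69 ± 0.41 (edgeR adjusted p = 0.133), CD274 (PD-L1) had -1.23 ± 0.40 (edgeR adjusted p = 0.196), the adhesion molecule ICAM1 had 1.35 ± 0.53 (edgeR adjusted p = 0.258) and CD58 had 0.49 ± 0.20 (edgeR adjusted p = 0.286). CD274 in HCC4006 had 34.3 TPM attached, 13.6 TPM at day 1 and 9.54 TPM at day 7, an order opposite to that of HLA-DRA there.

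MHC class I genes show peptides of the cytosol to CD8+ T cells and are set by another transactivator, NLRC5. All 13 were tested, with medians of 0.77 at day 1 and 0.82 at day 7, and 9 and 8 of them were higher at an unadjusted p under 0.05, beside 19.6% and 15.7% of all genes tested in either direction. At day 7, HLA-F had 1.73 ± 0.38 (edgeR adjusted p = 0.116), HLA-C 1.08 ± 0.28 (edgeR adjusted p = 0.147), HLA-B 1.44 ± 0.38 (edgeR adjusted p = 0.151) and HLA-E 1.39 ± 0.38 (edgeR adjusted p = 0.160). The peptide transporter TAP2 had -0.79 ± 0.22 at day 7 (edgeR adjusted p = 0.162), and DESeq2 called it lower. NCI-H2009, with the least class II RNA, had 909 TPM of HLA-B attached, 3133 TPM at day 1 and 8498 TPM at day 7, while HCC4006 had 512 TPM attached, 843 TPM at day 1 and 1360 TPM at day 7. B2M, the light chain of class I, had 6799 TPM in NCI-H2228, 5826 TPM in HCC4006, 4538 TPM in LC-2/ad and 1595 TPM in NCI-H2009 when attached. That is the order of lines of the summed class II presenting chains, but it did not hold throughout class I. At day 7 B2M had 10553 TPM in HCC4006 and 7949 TPM in NCI-H2228. Attached HLA-B had 1586 TPM in NCI-H2228 and 983 TPM in LC-2/ad, and was lowest in HCC4006. Whether class I and class II differed in their response was not tested.

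**Figure D5:**
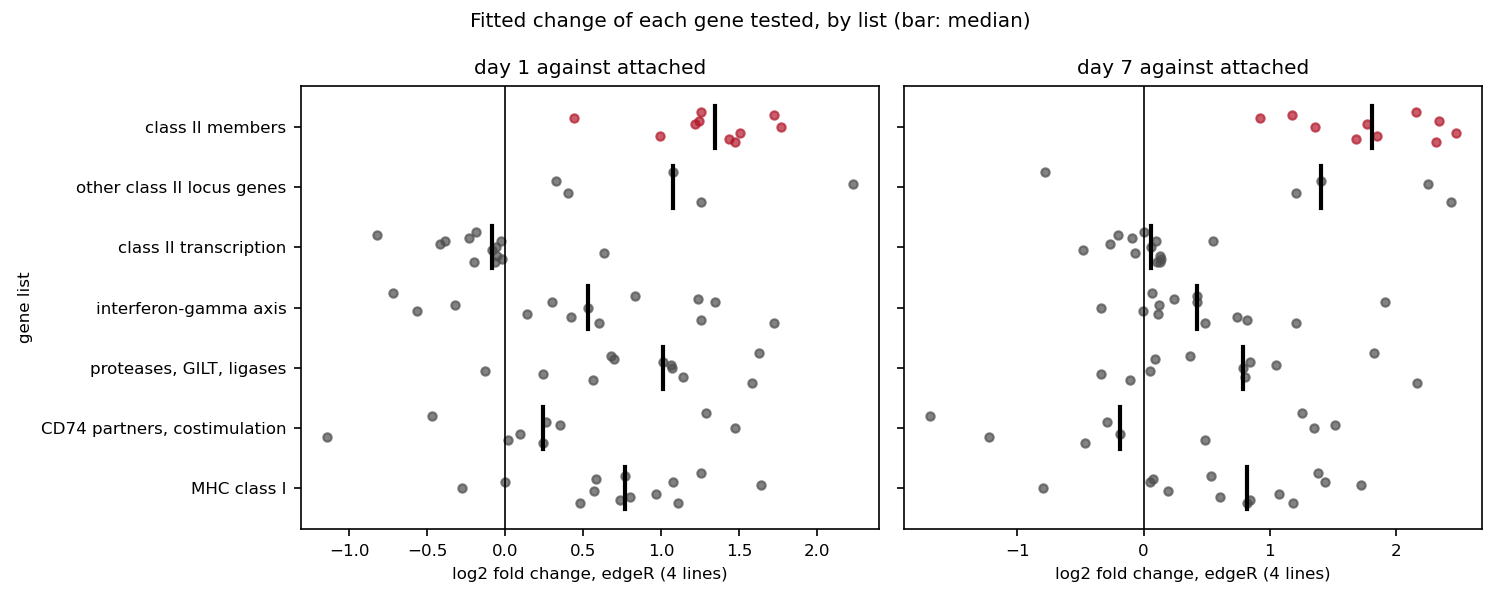
Fitted log2 fold change of each gene tested for day 1 against attached (left) and day 7 against attached (right), by list, with 1 point per gene and a bar at the list's median. The 10 class II genes (red) lie above 0 in both panels, with medians of 1.34 and 1.81. The promoter-binding factors have medians of -0.09 and 0.06. At day 1, 12 of these 13 lie below 0, most of them by less than their SE, down to -0.82 for CREB1, and RFXANK lies at 0.63. At day 7, 8 lie above 0 and 5 below.

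Part of the leukocyte markers were higher in the detached libraries, as the class II genes were. Of the 8 that were tested, 7 had a log2 fold change above 0 at day 1, with a median of 1.89, and 6 at day 7, with a median of 0.97. None passed with edgeR, beside 0.489% of all genes tested at day 1 and 0.103% at day 7. An unadjusted p under 0.05 was reached by 4 at day 1 and 2 at day 7, beside 19.6% and 15.7% of all genes tested. DESeq2 called 3 higher at day 1 and 1 at day 7, beside 5.46% and 3.45% of all genes. CD14 had 16.3 TPM attached, 41.1 TPM at day 1 and 91.1 TPM at day 7 in HCC4006, and 3.31 TPM attached, 22.0 TPM at day 1 and 11.9 TPM at day 7 in NCI-H2228. The pan-leukocyte gene PTPRC stayed at or under 0.834 TPM in those libraries, and the B cell gene MS4A1 and the dendritic cell gene CD1C were listed at 0 in all 12. Another B cell gene, CD79A, had the largest log2 fold change of the 8 at day 1, 3.70 ± 0.76 (edgeR adjusted p = 0.0682). It had 10.7 TPM attached, 106 TPM at day 1 and 83.7 TPM at day 7 in NCI-H2009, and no more than 2.87 TPM elsewhere. ITGAX reached 5.29 TPM in NCI-H2228 at day 1.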

How the data were processed

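RNA of 12 libraries, 1 per cell line and state, was sequenced after SMART-Seq v4 PLUS library preparation, per the labels. Per the submitters' processing notes the genome build is GRCh38; aligner, quantifier, annotation and strand use: not given in the sources used here. The deposited table gives TPM and an estimated count per gene and library, per the file headers, and 0 sample columns were left unused.

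The test on rounded estimated counts was that of edgeR 4.0.16 (R 4.3.3): filterByExpr by state (17395 genes kept, all 10 members among them), TMM factors, and a robust quasi-likelihood model of state and cell line (6 residual degrees of freedom, biological coefficient of variation 38.7%). P-values were adjusted by Benjamini-Hochberg over the genes tested, with a threshold of 0.05. SE is derived from the fold change and the F statistic. The same cell line pairs the libraries, and nothing gives separate cultures, so p-values measure the spread among lines. Differences within a line are of log2(TPM + 1), from 1 library each. The 1 in TPM + 1 damps differences of genes under a few TPM. DESeq2 1.42.0, limma 3.58.1, a pseudocount of 0.1, other scaling, no filter, 2-state fits, a fit without the cell line and leaving out each line were alternatives. The test was tested on simulated data. PCR copies carry no molecular identifiers.

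The genes, lists and motifs were chosen with earlier results of these data known. Named genes are the 10 members; in each other list, genes past the threshold or else the 2 to 4 with the smallest p at day 7; each other class II gene reaching 1 TPM; and the 8 most like the members by Pearson's r among genes with at least 5 TPM in a library. Other genes named were chosen after their values were seen. GENCODE 29 transcripts served to count shared words of 50 and 100 bases.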

Additional observations from a re-analysis of the deposited data

Results flagged for a closer look

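Among 60 sets of 4 values examined (the level of each gene in each state and its difference in each comparison, over the 4 lines), 1 held a line far from the others. For HLA-DPB1 at day 7 against attached, the difference on log2(TPM + 1) was 3.66 in HCC4006, and 0.17, 0.26 and 0.38 in LC-2/ad, NCI-H2228 and NCI-H2009. Chance flags about 1 in 20 such sets.

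At day 7 against day 1, each of the 10 genes was higher in HCC4006 and lower in NCI-H2228, and the median difference between these lines was 2.88 on the log2(TPM + 1) scale. The difference between the lines was not tested, since each has 1 library per state.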

How the results depend on the processing

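The number of genes called in the whole table, 85 at day 1 against attached, 18 at day 7 against attached and 0 at day 7 against day 1, depended on the processing, and the cause was not tested. In that order of comparisons it was 2, 6 and 0 with DESeq2's size factors in edgeR, 265, 114 and 6 with no filter on low counts, and 1709, 1162 and 193 with DESeq2. It was 0, 0 and 0 with no replicate block (the cell line dropped), 0, 1 and 0 with only the 2 states of a comparison fitted, 225, 13 and 0 with limma on log2(TPM + 1), and 223, 25 and 1 with a pseudocount of 0.1. Leaving out each line gave 0 to 0, 0 to 1 and 0 to 0, from fewer samples. Leaving out the NCI-H2009 day 1 library, chosen after seeing the data, gave 0, 69 and 0. The 64 other pathway genes had 0 calls in each comparison, but 2 at day 1 with no filter (CTSB and CTSD) and 15, 14 and 1 with DESeq2; leaving out each line gave 0 to 0.

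The median log2 change of the 10 genes, 1.34, 1.81 and 0.70, stayed above 0 under each alternative for the first 2; for day 7 against day 1 it was -0.37 with no replicate block. Leaving out each line gave 1.25 to 1.49, 1.11 to 2.61 and -0.22 to 1.35. With no replicate block HLA-DQB1 turned to -0.089 at day 7 against attached, and at day 7 against day 1 HLA-DRA turned to -0.58, HLA-DRB1 to -0.48, HLA-DRB5 to -0.26, HLA-DPA1 to -0.04 and HLA-DQB1 to -0.96. Pairing is by cell line. Of 120 differences within a line, 25 moved by at least 0.5 on log2 CPM with a prior count of 2 and 23 on log2(TPM + 0.1), and the median of NCI-H2009 at day 1 was 1.69 and 1.15 there, against 0.31 on log2(TPM + 1). With limma on log2(TPM + 1) the median of all genes tested was 0.13 at day 7 against day 1, beside 0.02 with edgeR. At day 1 against attached it was -0.08, beside 0.01 with edgeR. Depth limits NCI-H2009 most, where HLA-DRA rests on 2 estimated counts attached and HLA-DPB1 on 0.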
